A study of Mus musculus with 17 samples.

Results

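Phgdh, Psat1, Psph, Shmt1, Shmt2, Mthfd2, Mthfd1l and Aldh1l2 encode the enzymes that make serine and carry its carbon through the mitochondrial folate cycle. These 8 genes, of 30406 that all gene lists share, were followed in 17 single-cell libraries of mouse skin and kidney. They were chosen by the levels of Phgdh and Psat1, which were higher after bleomycin in skin stromal cells of these same libraries, so that contrast is described below without any test for any gene. The difference of that contrast between genotypes is left without a test too. Comparisons within stromal cells, and of stromal cells with other types, use the same counts of these genes but set cells of the same libraries against each other. The other skin classes and the kidney were not used in the choice. Levels are UMI counts (molecules tagged before amplification) summed over the cells of a type in a library, per 1000000 UMIs of those cells (CPM).

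All mice were 8 weeks old and carried PDGFRb-Cre with the Z/EG reporter, so that cells in which the Pdgfrb promoter had driven Cre express GFP, and GFP+ cells were sorted. The skin libraries were 3 of WT mice given PBS, 3 of WT mice given bleomycin, and 1 for each treatment of SaraTG mice. The kidney libraries were 3 of WT mice given vehicle, 3 of WT mice given aristolochic acid (AA), 2 of SaraTG mice given vehicle and 1 of SaraTG mice given AA. SaraTG carries the human ZFYVE9 cDNA (SARA, a Smad anchor protein of TGF-β signalling) behind a stop that Cre removes. Bleomycin, a DNA-breaking drug, was given subcutaneously at 20 mg/kg, by the labels 3 times a week for 2 weeks, whereas the study's methods state daily injection. AA, a plant toxin of the tubule, was given intraperitoneally at 5 mg/kg 3 times a week for 3 weeks. The Pdgfrb promoter is also active in inflammatory cells in development, and Cre-marked cells keep GFP after Pdgfrb is off. The libraries held many cell types, and whether all of them had expressed Cre was not tested. The kidney design is known from the labels only, which give the same cross and sort for both tissues. The labels do not say whether a library is a single mouse, so p-values measure only the spread between libraries.

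Serine is made from a glycolytic intermediate in 3 steps, catalysed by PHGDH, which commits carbon to the pathway, PSAT1 and PSPH. SHMT2 in mitochondria and SHMT1 in the cytosol cleave serine to glycine and pass its carbon to tetrahydrofolate. In mitochondria MTHFD2 oxidises that unit, MTHFD1L releases it as formate for purine and thymidylate synthesis in the cytosol, and ALDH1L2 oxidises it to CO2 with formation of NADPH. The pathway is known for its activity in proliferating cells and for supplying glycine for collagen in fibroblasts, and ATF4 is a known activator of several of its genes.

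The start-site regions of 5 members are shown because CCAAT boxes, a common promoter motif, are present in some of the members that were higher together in stromal cells and absent from others. Each run is the 100 bases before the start site in RefSeq (GRCm38.p6), 5′ to 3′ on the gene's strand, with CCAAT on either strand in capitals. The windows are chr3:98339970-98340069 for Phgdh, chr19:15925060-15925159 for Psat1, chr6:83317605-83317704 for Mthfd2 and chr10:127522445-127522544 for Shmt2, all on the minus strand, and chr10:3972975-3973074 on the plus strand for Mthfd1l.
Phgdh: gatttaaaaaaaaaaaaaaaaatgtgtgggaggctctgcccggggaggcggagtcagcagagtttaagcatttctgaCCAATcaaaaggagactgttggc
Psat1: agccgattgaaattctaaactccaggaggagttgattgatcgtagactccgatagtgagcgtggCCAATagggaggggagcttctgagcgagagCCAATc
Mthfd2: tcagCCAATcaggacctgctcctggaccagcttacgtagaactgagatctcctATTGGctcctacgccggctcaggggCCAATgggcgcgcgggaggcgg
Shmt2: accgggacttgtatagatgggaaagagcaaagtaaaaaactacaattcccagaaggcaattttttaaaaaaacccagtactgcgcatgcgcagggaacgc
Mthfd1l: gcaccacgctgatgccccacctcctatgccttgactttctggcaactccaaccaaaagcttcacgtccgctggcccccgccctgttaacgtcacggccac
The Mthfd2 window holds 3 boxes, the Psat1 window 2 and the Phgdh window 1, while those of Shmt2 and Mthfd1l hold none. A second start site of Psat1, with its window at chr19:15924623-15924722, has none. Of the 8 promoters of 7 members with an entry, 5 (of Mthfd2, Phgdh, Psat1, Psph and Shmt1) had CCAAT in a window of this length, against 18.9% of 32851 promoters. In GENCODE, another gene annotation, all 100 bases of the Psph window, 21 of the Phgdh window and 2 of the Mthfd2 window lie in an exon. By the gene positions, the 5′ ends of Psat1 (chr19:15947337) and Mthfd2 (chr6:83325908) lie upstream of their windows. The same holds for Shmt1 (chr11:60811718). None of the windows of Psph, Phgdh, Mthfd2, Psat1 and Shmt1 is thus wholly before every annotated start. A composite motif bound by ATF4 dimers, searched on both strands as TGATGNAA over 250 bases, was in 0 of the 7 members, in 3.45% of all promoters and in 7 of the 16 genes with a promoter entry among the 18 of a list of ATF4 and its targets. A match is a string of letters in a window, and its absence says nothing about the factor.

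Cells were assigned to types by marker genes, which placed 24760 of 28978 skin cells and 53884 of 58140 kidney cells. The stromal class of skin had 10 of 10 of its markers raised and Pdgfrb at 113 CPM, and mural cells had Pdgfrb at 374 CPM. Other skin types had Pdgfrb at 0.20 to 48.4 CPM, and kidney types other than stromal and mural cells at 0 to 7.40 CPM, below the 93.6 CPM of kidney stromal cells, so the defining transcript of the sort was high in the stromal and mural classes and low in the rest. Skin libraries held 3355217 to 69765525 UMIs and kidney libraries 28660151 to 137093834. Zfyve9, whose counts check the transgene, was at 222 and 313 CPM in the SaraTG skin libraries but at 615 CPM in the library labelled WT PBS 3. In the library labelled WT PBS 1 the separate human entry stood at 838 CPM, against 86.7 to 186 CPM in the other libraries that list it. In kidney Zfyve9 was at 93.9 to 99.4 CPM in the SaraTG vehicle libraries and at 159 CPM in the library labelled WT AA 1. It was at 19.7 CPM in that labelled SaraTG AA 1 and at 9.71 to 31.5 CPM in the others. The share of barcodes that occur in another library of the tissue was 55.5% in WT PBS 2, 22.1% in WT bleomycin 2, 17.6% in WT bleomycin 1, 7.38% in WT PBS 1 and at most 2.13% in any other library. Some of the treatment effects that rest on these libraries are also given without WT PBS 1 and 3, WT AA 1 or the shared barcodes. Without WT PBS 1 and 3 each skin contrast has a single WT PBS library, so a call not made there says nothing of stability. SaraTG AA 1 is the only library of its group, so no SaraTG AA value can be had without it.

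In skin stromal cells the first steps of serine synthesis stood apart most between the WT groups. Phgdh was at 27.7, 14.1 and 22.3 CPM in WT PBS 1, 2 and 3, and at 70.2, 72.8 and 69.8 CPM in WT bleomycin 1, 2 and 3. The bleomycin libraries lay within 3 CPM of one another and all above the PBS libraries (21.4 ± 6.81 against 70.9 ± 1.61 CPM, SD, n = 3 each), a fitted log2 difference of 1.64 ± 0.22 (SE). Psat1 was at 13.4, 2.83 and 13.8 CPM with PBS and at 47.2, 38.6 and 44.7 CPM with bleomycin. Its low PBS value rests on 2 UMIs, and the groups did not overlap (log2 difference 1.90 ± 0.37). Psph, the phosphatase that releases free serine, was at 9.52, 8.49 and 6.98 CPM with PBS and at 29.7, 19.3 and 24.3 CPM with bleomycin, again without overlap (1.56 ± 0.28). Of the 3 steps, none had a PBS library as high as any bleomycin library.

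The mitochondrial folate enzymes divided. Mthfd1l, the formate-releasing enzyme, was at 7.28, 5.66 and 4.59 CPM with PBS and at 20.6, 14.2 and 15.6 CPM with bleomycin, a log2 difference of 1.48 ± 0.32. Shmt2 was at 26.2, 21.2 and 22.5 CPM against 44.0, 38.6 and 33.5 CPM (0.74 ± 0.22). Mthfd2 was at 30.2, 21.2 and 31.1 CPM against 50.7, 41.2 and 49.1 CPM (0.75 ± 0.22). All 3 were higher in every bleomycin library than in any PBS library, Shmt2 and Mthfd2 by less than Mthfd1l. The other 2 members overlapped. Shmt1, the cytosolic counterpart of Shmt2, was at 4.26, 1.42 and 3.39 CPM against 7.14, 7.73 and 2.00 CPM (0.66 ± 0.58). Aldh1l2, the NADPH-forming enzyme, was at 7.73, 12.7 and 21.7 CPM against 7.93, 14.8 and 14.0 CPM. Its fitted log2 difference was -0.22 ± 0.47, and 0.44 without WT PBS 3. With cells thinned to 3000 UMIs the log2 ratio of group mean CPM, with 1 CPM added and no fit, was -2.34. The thinned bleomycin libraries were then near the floor, at 0 to 7.94 CPM, against 8.21 to 22.99 CPM with PBS.

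So 6 of the 8 members lay above PBS without overlap, where 13.8% of 10707 genes did so and 14.6% lay below. Nothing can be read from that share, since the contrast chose the genes. The members' median log2 difference was 1.11, against -0.01 for all genes. With each cell thinned to an equal depth, Psph and Shmt2 overlapped, with their values given below. Phgdh, Psat1, Mthfd2 and Mthfd1l then still lay above PBS without overlap, but the thinned values rest on few UMIs in some libraries. WT bleomycin 1 had 8 of Phgdh, 6 of Psat1, 11 of Mthfd2 and 2 of Mthfd1l in 65 cells. For Mthfd2 the highest PBS value was 26.5 CPM and the lowest bleomycin value 29.1 CPM. With shared barcodes left out the count was 5 and the log2 difference was 1.34 for Phgdh, 1.27 for Psat1, 0.46 for Shmt2 and 0.47 for Mthfd2, but WT PBS 2 then kept 27 of its 103 stromal cells, WT bleomycin 1 kept 29 of 121 and WT bleomycin 2 kept 63 of 170. Without WT PBS 1 and 3, which leaves WT PBS 2 as the sole control library, the count was 7, with 2.24 for Phgdh and 3.51 for Psat1.

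**Figure D1:**
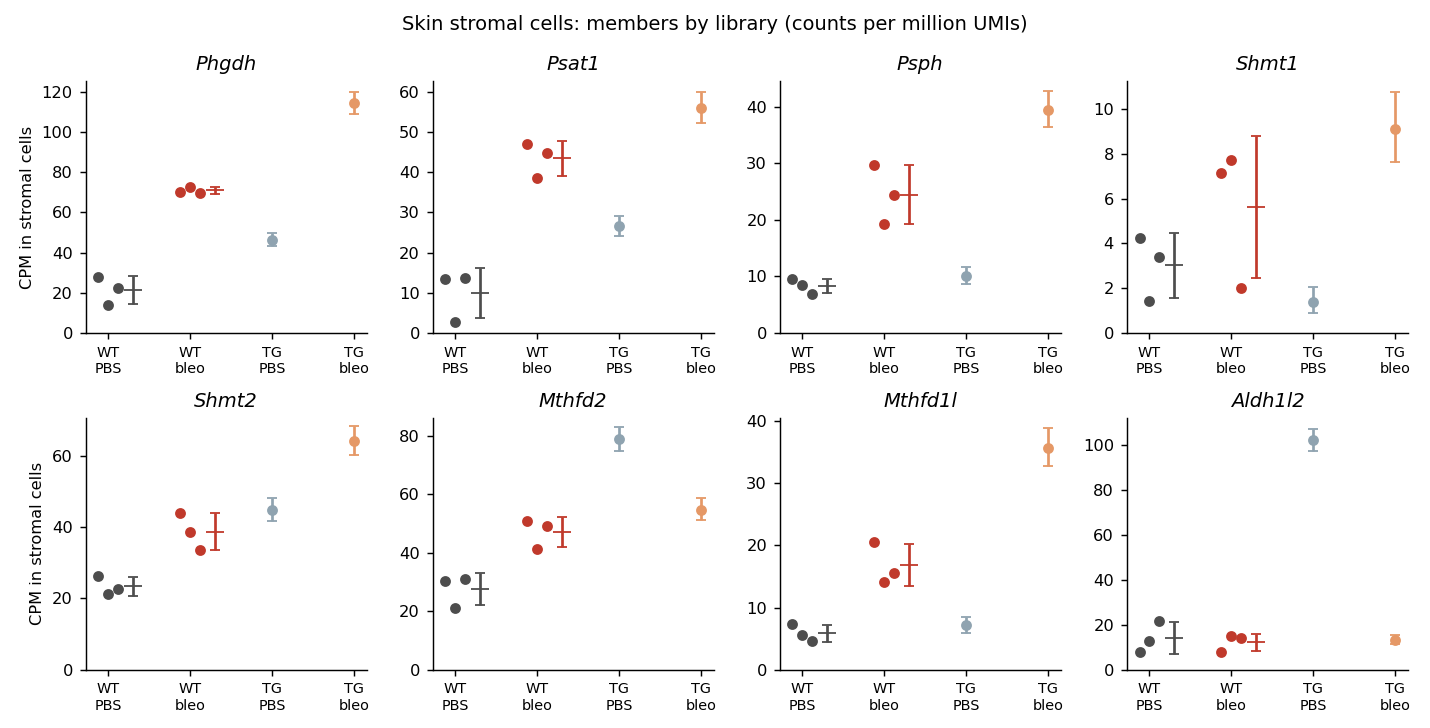
Level of each member in skin stromal cells (y axis, CPM), 1 point per library, by genotype (WT, SaraTG as TG) and treatment (PBS, bleomycin as bleo). Crosses with bars give the mean and SD of 3 WT libraries, and bars on the single SaraTG libraries are exact 95% Poisson intervals; Phgdh, Psat1, Psph, Shmt2, Mthfd2 and Mthfd1l show WT bleomycin above WT PBS without overlap, and Aldh1l2 is at 102 CPM in SaraTG PBS.

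The SaraTG libraries, 1 per treatment, are described here without a test, and their intervals cover counting error only. Phgdh was at 46.5 CPM (exact 95% Poisson interval 43.3 to 49.8) with PBS and at 115 CPM (109 to 120.0) with bleomycin. Psat1 was at 26.5 CPM (24.2 to 29.1) and 56.0 CPM (52.2 to 59.9), and Psph at 10.1 CPM (8.62 to 11.7) and 39.4 CPM (36.3 to 42.7). The SaraTG bleomycin library thus had the highest level of all 3 serine enzymes among the 8 skin libraries. The file headers name Cell Ranger 3.1.0 for both SaraTG libraries, WT PBS 3 and WT bleomycin 3, and 4.0.0 for the other skin libraries. Mthfd1l was at 7.12 CPM and 35.6 CPM and Shmt2 at 44.8 CPM and 64.1 CPM. Aldh1l2 went the other way, at 102 CPM (97.3 to 107) with PBS and 13.4 CPM (11.6 to 15.4) with bleomycin. Mthfd2 did too, at 78.7 CPM (74.6 to 83.0) and 54.7 CPM (51.0 to 58.6). Other measures of the same cells differed as well. The summed cell-cycle list was at 48.9 CPM with PBS and 664 CPM with bleomycin, the Crabp1 list at 32.0 and 909 CPM and the Pi16 list at 781 and 199 CPM, with medians of 19004 and 34674 UMIs per cell. Their part was not tested.

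Genes that surround these enzymes were counted in the same stromal contrast, also without a test. Of 66 listed pathway and cell-cycle genes 53 had enough counts, and 11 lay above and 3 below PBS without overlap, where 13.8% of all genes lay above and 14.6% below. In the list of ATF4 and its targets 6 of the 16 with enough counts were above and 1 below, with a median log2 difference of 0.24. Above were Asns, asparagine synthetase (1.08), Slc7a5, a large neutral amino acid carrier (1.17), Ddit4, an inhibitor of mTORC1 (0.91), and the transfer RNA synthetases Gars (0.85), Sars (0.68) and Aars (0.51). Below was Atf4 itself, at 430 ± 39.7 CPM with PBS and 262 ± 60.7 CPM with bleomycin (-0.70). Of the glycine cleavage system, which splits glycine in mitochondria, both measured genes were above, Gcsh (0.90) and Dld (0.43). Of 7 measured carriers of folate, serine and other amino acids 1 was above and 2 below. Slc1a4, a serine carrier under the 10 CPM set for named genes and named after its values were seen, was at 3.70, 1.41 and 2.99 CPM with PBS and 10.3, 10.9 and 6.39 CPM with bleomycin (1.44), and the amino acid transporters Slc1a5 (-0.63) and Slc38a2 (-0.53) were below. Of 3 other mitochondrial folate genes 1 was above, Sardh, sarcosine dehydrogenase (1.32), which was also under 10 CPM and named in the same way. Of 7 measured cytosolic folate enzymes 0 stood apart (median 0.45), and the same held for 5 genes of serine and homocysteine use (median 0.23).

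Other measures moved with the groups in the stromal class. The summed cell-cycle list was at 614, 143 and 78.7 CPM with PBS and 524, 228 and 382 CPM with bleomycin; 8 of 10 genes had a higher mean with bleomycin, and 0 of 10 were free of overlap. The Pi16 list (adventitial fibroblast genes) was at 794 to 2390 CPM with PBS and 236 to 451 CPM with bleomycin, with 0 of 5 genes higher. The Crabp1 list was at 46.7 to 361 CPM with PBS and 526 to 1388 CPM with bleomycin, with 1 of 4 genes higher. The leukocyte list was at 11.3 to 40.9 CPM with PBS and 56.3 to 81.2 CPM with bleomycin, with 5 of 5 genes higher. The Schwann list was at 13.0 to 36.8 CPM against 16.6 to 44.4 CPM, with 8 of 10 higher, and the keratinocyte list at 64.8 to 80.7 CPM against 32.1 to 56.0 CPM, with 1 of 10 higher. The mural list was higher with bleomycin without overlap, at 215 to 263 CPM against 295 to 399.96 CPM, with 3 of 10 genes higher and Higd1b at 0 in every WT library. The endothelial list (65.6 to 90.5 against 25.4 to 55.9 CPM), the melanocyte list (37.8 to 86.3 against 27.5 to 31.6 CPM) and the B cell list (369 to 603 against 173 to 329 CPM) were lower without overlap. The median UMIs per stromal cell were 4836 to 14103 with PBS and 1470 to 12605 with bleomycin. Their part in the members' levels was not tested, and depth was only set equal in a single random draw of UMIs. With each cell thinned to 3000 UMIs and shallower cells left out, Phgdh was at 16.8 ± 11.5 CPM with PBS and 43.2 ± 4.97 CPM with bleomycin, still without overlap, and Psat1 at 6.96 ± 6.03 and 25.3 ± 6.24 CPM. Mthfd2 (22.6 to 26.5 against 29.1 to 56.4 CPM) and Mthfd1l (0 to 6.16 against 10.3 to 15.9 CPM) also stayed apart, on few UMIs in some libraries. Psph (5.75 to 9.55 against 7.94 to 25.6 CPM) and Shmt2 (14.9 to 28.7 against 25.6 to 40.0 CPM) then overlapped.

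Stromal cells with cell-cycle transcripts had higher levels of several members. Cells with UMIs of at least 2 of 10 cell-cycle genes were compared with cells with none, within each of 7 skin libraries, 633 cells against 1115. Psat1 was higher in cycling cells in 7 of 7 libraries (46.3 against 14.6 CPM, mean log2 difference 1.11 ± 0.62 SD), as were Mthfd2 (57.8 against 29.8 CPM), Mthfd1l (19.6 against 9.72 CPM) and Psph (24.5 against 13.7 CPM). These 4 passed the exact two-sided sign-flip permutation test over libraries, on log2(CPM + 10), after adjustment over 24 comparisons (adjusted p = 0.034 each). The stromal counts that chose the genes enter this test, so no support is read from these passes. Phgdh was higher in 5 of 7 libraries (73.6 against 32.5 CPM, exact adjusted p = 0.088) and did not pass, nor did Shmt1 and Shmt2 (each 6 of 7 libraries, exact adjusted p = 0.050, at the limit) or Aldh1l2 (4 of 7, exact adjusted p = 0.39). Phgdh was at 24.4 and 36.6 CPM in cycling cells of the 2 WT PBS libraries with enough of them. It was at 80.2 to 109 CPM in those of 3 WT bleomycin libraries, and the SaraTG PBS library was among those lower in cycling cells.

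The same split was made in T and innate lymphoid cells of skin and in the proximal tubule. In the lymphoid cells Phgdh (59.7 against 22.7 CPM), Psat1 (27.8 against 11.6 CPM), Psph (38.8 against 27.4 CPM), Shmt2 (22.4 against 15.6 CPM) and Mthfd2 (80.1 against 43.6 CPM) were higher in cycling cells in 7 of 7 libraries, each with an exact adjusted p of 0.034. In the proximal tubule Phgdh (60.8 against 24.9 CPM) and Mthfd2 (16.6 against 4.06 CPM) were higher in 9 of 9 libraries (exact adjusted p = 0.034). Shmt2 was at 61.5 CPM in cycling and 68.3 CPM in non-cycling tubule cells, with an exact adjusted p of 0.18. In all, 11 of 24 comparisons passed, where 11.5% of all genes in stromal cells, 11.9% in lymphoid cells and 19.5% in the proximal tubule were higher in cycling cells at an unadjusted exact p under 0.05. The members at that p were 6 of 8, 7 of 7 and 3 of 7, over those with a mean of at least 1 CPM. Nothing is read from the stromal share, since the stromal counts chose the genes and lie largely in cycling cells. In WT bleomycin 1 the cycling cells held 161 Phgdh and 110 Psat1 UMIs and the non-cycling cells 1 of each. Of the 24 comparisons 0 passed with shared barcodes left out (smallest exact adjusted p = 0.054) and 0 after thinning to 3000 UMIs.

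Depth moves with this split, since cells with more UMIs show more cell-cycle genes. In WT bleomycin 1, cycling stromal cells had a median of 43716 UMIs and the others 871. After thinning, stromal cells gave 4 libraries and a smallest possible p of 0.13. Phgdh was then higher in cycling cells in 4 of 4 (107 against 39.3 CPM), as were Psat1, Shmt2 and Mthfd2, while Mthfd1l was higher in 1 of 4. Phgdh in thinned tubule cells was higher in 6 of 6 (88.1 against 35.5 CPM, exact adjusted p = 0.19). Thinned T and innate lymphoid cells kept 7 libraries, with 382 cycling cells in place of 848. Psat1 there was at 16.0 against 17.1 CPM, a log2 difference of 0.01 in place of 0.89, and Psph had 0.14 in place of 0.38. Phgdh (65.7 against 22.6 CPM, 6 of 7 libraries) and Mthfd2 (89.97 against 47.3 CPM, 7 of 7) had exact adjusted p of 0.19. In thinned non-cycling stromal cells the WT groups did not overlap, with Phgdh at 8.33 to 22.2 CPM in WT PBS and 33.3 to 63.8 CPM in WT bleomycin, values that rest on 1 to 17 UMIs a library. Before thinning they overlapped, at 18.8 ± 6.19 and 26.5 ± 10.0 CPM. Thinned cycling stromal cells did not keep the groups apart for Phgdh. It was at 86.7 CPM in WT PBS 1, the 1 WT PBS library left, and at 83.3 and 90.9 CPM in 2 WT bleomycin libraries. The WT PBS 1 value rests on 13 UMIs and that of WT bleomycin 1 on 3.

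**Figure D2:**
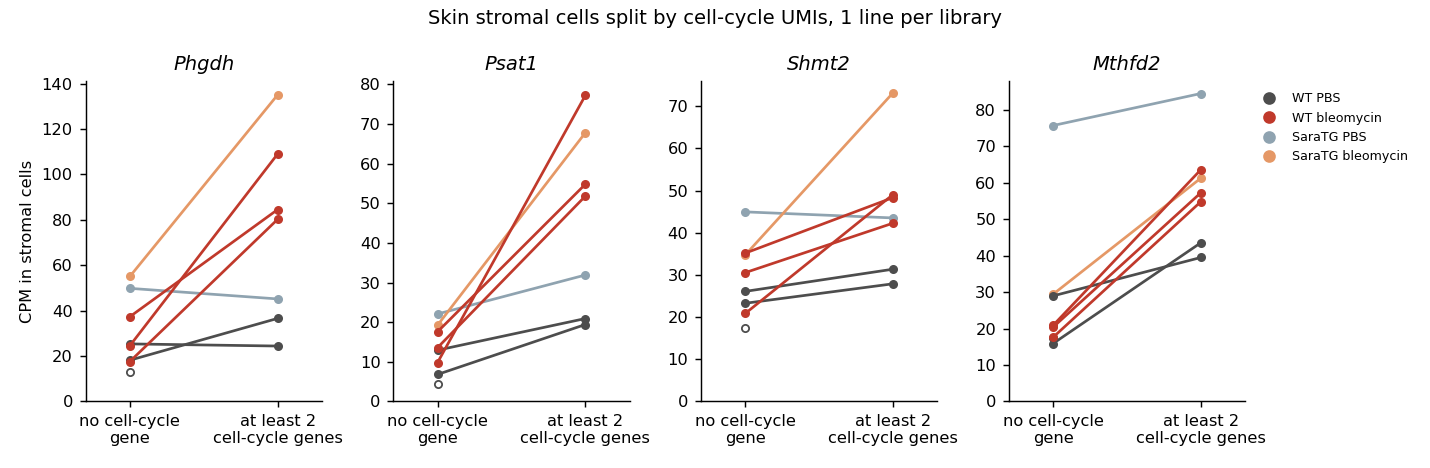
CPM in skin stromal cells (y axis) without UMIs of the cell-cycle list (left) and with UMIs of at least 2 of its genes (right), 1 line per library, coloured by genotype and treatment. The open circle is WT PBS 2, which had 8 cycling cells and no right-hand value; the WT bleomycin lines rise to 80.2 to 109 CPM for Phgdh, and the SaraTG PBS line falls slightly.

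The members were also compared between fibroblast states. Stromal cells with UMIs of the Cthrc1 list (matrix-producing fibroblast genes such as Postn and Tnc) and none of the Pi16 list were compared with the reverse in 7 libraries, 339 against 167 cells. Phgdh was at 52.0 ± 20.2 and 58.6 ± 40.6 CPM and Psat1 at 27.9 ± 24.2 and 17.3 ± 19.1 CPM, and 0 of 8 members passed the exact sign-flip test after adjustment. Mthfd1l came nearest, at 19.1 ± 10.0 CPM in Cthrc1-list cells and 2.24 ± 3.86 CPM in Pi16-list cells, higher in 6 of 7 libraries (exact p = 0.031, adjusted p = 0.25). It was the 1 member with an unadjusted p under 0.05. These sets are a small part of the 2812 stromal cells of the 8 libraries. A cell with more UMIs is more likely to show both lists and so be left out. The 0 calls therefore do not show that the states are alike.

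Between skin cell types, Schwann cells, keratinocytes, stromal cells and dendritic cells each had the highest mean of at least 1 member. In both tissues the top and next type of a gene were picked by mean level in the libraries that were then tested. Each p-value of such a pair can therefore be smaller than for a pair set beforehand. Phgdh was highest in Schwann cells, the glia of peripheral nerve, at 73.0 to 173 CPM (mean 126 ± 31.3, n = 8 libraries), above keratinocytes at 64.0 ± 24.6 CPM in 8 of 8 libraries (exact sign-flip test, adjusted p = 0.018 over 16 pairs). Stromal cells (54.7 ± 33.5 CPM), skeletal muscle (51.4 ± 50.7 CPM) and T and innate lymphoid cells (41.5 ± 13.5 CPM) followed over all 8 libraries, with neighbours closer than their spread. In WT, keratinocytes and stromal cells changed places between treatments, in that keratinocytes (76.1 to 114 CPM) lay above stromal cells (14.1 to 27.7 CPM) with PBS, and stromal cells (69.8 to 72.8 CPM) above keratinocytes (39.2 to 47.2 CPM) with bleomycin. Dendritic cells, endothelial cells, macrophages, neutrophils and mast cells were at means of 1.6 to 5.5 CPM. Psat1 was also highest in Schwann cells (57.8 ± 21.3 CPM), but not beyond keratinocytes (39.3 ± 13.7 CPM, exact adjusted p = 0.10). Psph was highest in keratinocytes, at 120 ± 54.4 CPM against 50.6 ± 18.5 CPM in Schwann cells, in 8 of 8 libraries (exact adjusted p = 0.018), a call lost with shared barcodes left out. In WT the keratinocyte levels were 134 to 223 CPM with PBS and 63.7 to 83.1 CPM with bleomycin.

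Among the folate enzymes of skin, Mthfd2 was highest in dendritic cells, at 118 to 169 CPM (mean 150 ± 18.0), above macrophages (76.8 ± 26.8 CPM) in 8 of 8 libraries (exact adjusted p = 0.018), while the same dendritic cells had Phgdh at 5.5 ± 4.5 CPM. Mthfd1l was highest in Schwann cells (44.5 ± 22.2 CPM), above stromal cells (13.8 ± 10.5 CPM) in 8 of 8 libraries (exact adjusted p = 0.018). Shmt1 was highest in keratinocytes (26.3 ± 12.2 CPM against 7.82 ± 7.74 CPM in Schwann cells, exact adjusted p = 0.028, 7 of 8 libraries). Shmt2 in stromal cells (36.9 ± 14.3 CPM) and keratinocytes (35.5 ± 13.9 CPM) did not differ beyond its spread (log2 difference 0.04 ± 0.60 SD). Nor did Aldh1l2 in stromal cells and Schwann cells (24.3 ± 31.7 and 22.4 ± 14.9 CPM), the stromal mean resting largely on SaraTG PBS. Neutrophils were at the bottom for Psph and Shmt2, at means of 1.0 and 0.2 CPM.

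In kidney the tubule segments divided the family. Shmt1 was highest in the distal convoluted and connecting tubule (179 ± 31.7 CPM) and the thick ascending limb (152 ± 27.9 CPM), in that order in 8 of 9 libraries (exact adjusted p = 0.031, lost with a stricter cell filter or with shared barcodes left out, and -0.02 on the log2 scale with a stricter gate). Shmt2 was highest in the proximal tubule, at 44.8 to 106 CPM against 14.99 to 25.7 CPM in T and innate lymphoid cells, without overlap and in 9 of 9 libraries (exact adjusted p = 0.018). Psat1 too was highest in the proximal tubule (34.3 ± 18.5 CPM against 14.6 ± 4.1 CPM in T and innate lymphoid cells, 8 of 9 libraries, exact adjusted p = 0.023). Aldh1l2 was at 13.6 to 61.7 CPM in intercalated cells, the acid-secreting cells of the collecting duct, and at a mean of 5.29 CPM in stromal cells in 4 libraries with both, where the smallest possible p is 0.13.

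In the lymphoid and myeloid cells of kidney, Mthfd2 was highest in dendritic cells (65.4 ± 22.2 CPM), above T and innate lymphoid cells (33.7 ± 6.5 CPM) in 8 of 8 libraries (exact adjusted p = 0.018). Mthfd1l was highest in T and innate lymphoid cells, above macrophages in 9 of 9 libraries (11.8 ± 2.18 against 6.10 ± 1.296 CPM, exact adjusted p = 0.018). Psph was nearly level between T and innate lymphoid cells (50.01 ± 6.7 CPM) and the proximal tubule (48.6 ± 15.7 CPM). Phgdh was at 85.1 ± 24.5 CPM in T and innate lymphoid cells and 72.0 ± 10.5 CPM in B cells, against 5.2 ± 3.7 CPM in macrophages. Kidney stromal and mural cells had higher Phgdh means (143 ± 109.5 and 106 ± 189.5 CPM), but over 4 libraries of 10 to 40 cells that ranged from 30.02 to 289 and from 0 to 389 CPM. In all, 10 of the 16 pairs of a gene's top and next cell type passed, 5 in each tissue. Since the same libraries chose the top type, nothing is read from that count, and by the same choice 28.8% of 17506 genes in skin and 19.7% of 17487 in kidney had an unadjusted exact p under 0.05. With shared barcodes left out 8 pairs passed, and Psph in skin and Shmt1 in kidney no longer did.

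**Figure D3:**
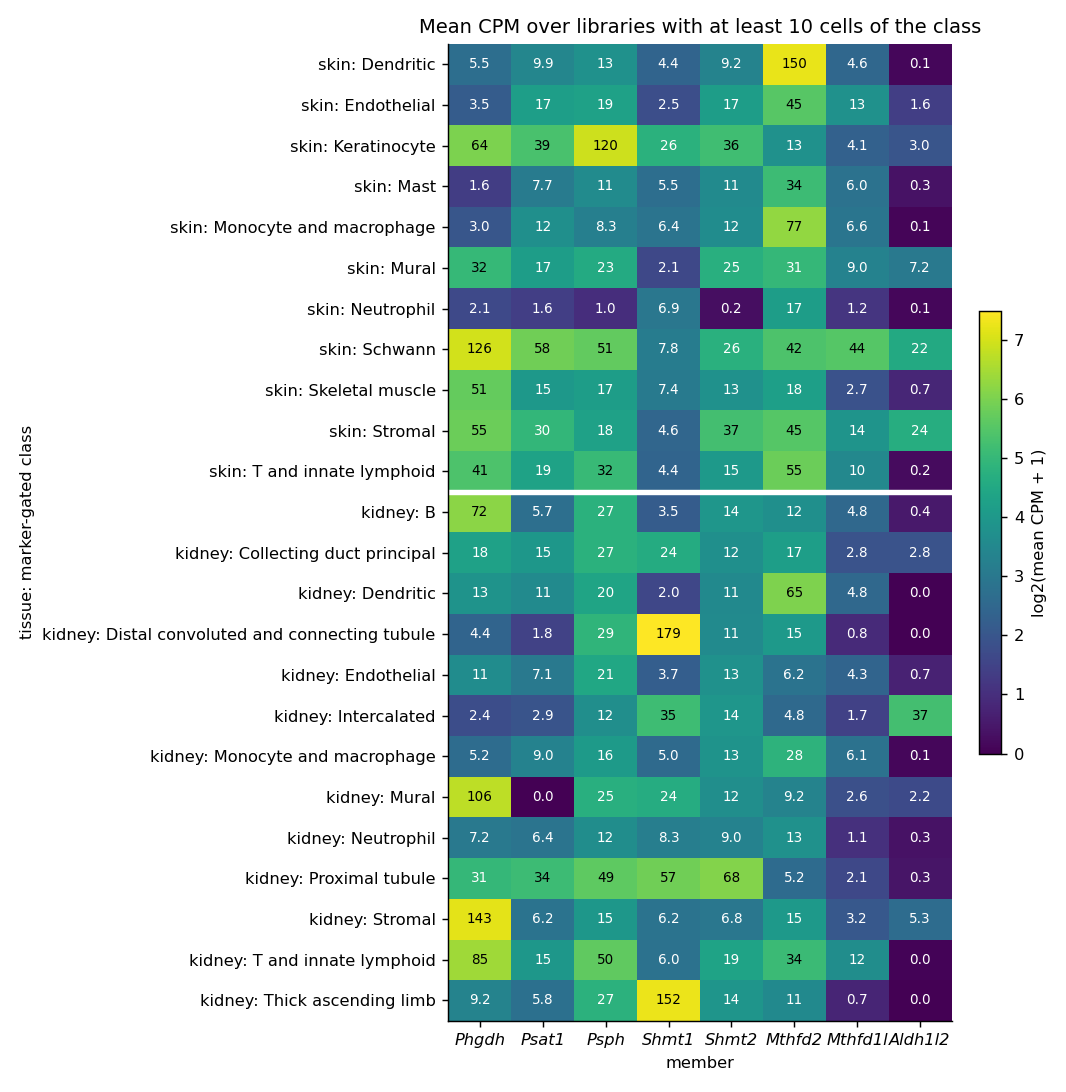
Mean CPM of each member (columns) in each marker-gated class of skin (upper rows) and kidney (lower rows), over libraries with at least 10 cells of the class, printed in each field, with colour as log2(mean CPM + 1). Phgdh peaks in Schwann cells of skin, Mthfd2 in dendritic cells of both tissues, Shmt1 in the distal tubule and thick ascending limb and Shmt2 in the proximal tubule.

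The bleomycin contrast was tested in the other skin classes. Of 34 pairs of a member and a class, in 6 classes, 0 were called by edgeR, with 7 (20.6%) at an unadjusted p under 0.05, against 11.5% of the 57340 gene tests in all 10 classes, and DESeq2 called 0 of 30. Of all genes edgeR called 8.59% in Schwann cells, 0.0172% in macrophages, 0.018% in skeletal muscle and 0% in dendritic cells, keratinocytes, T and innate lymphoid cells and the 4 classes without a testable member. In keratinocytes Psph was at 134, 175 and 223 CPM with PBS and at 83.1, 83.1 and 63.7 CPM with bleomycin, below without overlap (log2 difference -1.14 ± 0.30, edgeR adjusted p = 0.167). Phgdh was at 77.7, 76.1 and 114 CPM against 46.1, 47.2 and 39.2 CPM there (-0.98 ± 0.30, adjusted p = 0.227), opposite in sign to stromal cells, a difference between classes that was not tested. Shmt1 in keratinocytes had -1.12 ± 0.39 with overlap (adjusted p = 0.261). Cell-cycle transcripts moved with these values in part. Ube2c was at 123, 7.61 and 67.6 CPM in the same keratinocytes of WT PBS 1, 2 and 3 and at 9.23, 2.25 and 1.63 CPM with bleomycin. Birc5 was at 73.5, 15.2 and 35.9 CPM and at 9.23, 13.5 and 3.27 CPM. The WT PBS 2 values come from 19 keratinocytes with 131417 UMIs in all, so those of Ube2c and Birc5 are near the floor. The part of cell-cycle transcripts was not tested.

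In skeletal muscle cells, which include Pax7 satellite cells, Psat1 was at 0, 0 and 3.62 CPM with PBS and at 30.5, 25.7 and 17.3 CPM with bleomycin (2.08 ± 0.87, edgeR adjusted p = 0.158), with 1.95 and 40.8 CPM in the SaraTG PBS and bleomycin libraries. These cells held only 131910 and 47144 UMIs in WT PBS 1 and 2, too few for a 0 to bound the level tightly. The Phgdh values of those libraries rest on the same sums. Phgdh was at 37.9, 21.2 and 2.71 CPM against 105, 133 and 16.6 CPM, overlapping (2.19 ± 0.97, adjusted p = 0.334). Without the filter on low counts it passed (2.49, adjusted p = 0.00677), as did keratinocyte Psph (-1.19, adjusted p = 0.0179). In Schwann cells Psph (0.85 ± 0.37) and Mthfd2 (0.87 ± 0.39) were the members with an unadjusted p under 0.05, and Psph passed without WT bleomycin 3 (1.05, edgeR adjusted p = 0.0493). Without WT PBS 1 and 3 they had 1.56 and 0.27. Phgdh in Schwann cells was at 120, 135 and 120 CPM against 123, 173 and 101 CPM, with no shift beyond its spread (0.19 ± 0.26).

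Pathway genes were tested in the same classes, and 3 passed, all higher with bleomycin in Schwann cells, where 36 were tested and 8.59% of all genes were called. They were Nupr1, a stress-induced transcriptional regulator (3.15 ± 0.44, edgeR adjusted p = 0.00211), Gars, the glycine transfer RNA synthetase (1.86 ± 0.40, adjusted p = 0.0142), and Birc5, survivin of the cell cycle list (3.82 ± 1.61, adjusted p = 0.0254). Nupr1 was at 12.3 to 41.9 CPM in WT PBS and 159 to 248 CPM in WT bleomycin, and Gars at 15.7 to 49.2 against 75.2 to 120.0 CPM. None of the 3 passed with shared barcodes left out, when Nupr1 had 1.68 (edgeR adjusted p = 0.293), Gars 1.59 (adjusted p = 0.101) and Birc5 2.95 (adjusted p = 0.119). Without WT PBS 1 and 3 the control was WT PBS 2 alone, with 14 Schwann cells, and Nupr1 had 4.14 and Gars 1.31, neither past the threshold in that smaller design. Depth differed between the groups in Schwann cells. Their median was 2849.5 to 5344.5 UMIs per cell in WT PBS, with 14 to 46 cells a library. In WT bleomycin it was 13336 to 15887 UMIs, with 34 to 156 cells. The part of depth in these calls was not tested. No pathway gene passed in a kidney class, for AA or for genotype under vehicle.

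**Figure D4:**
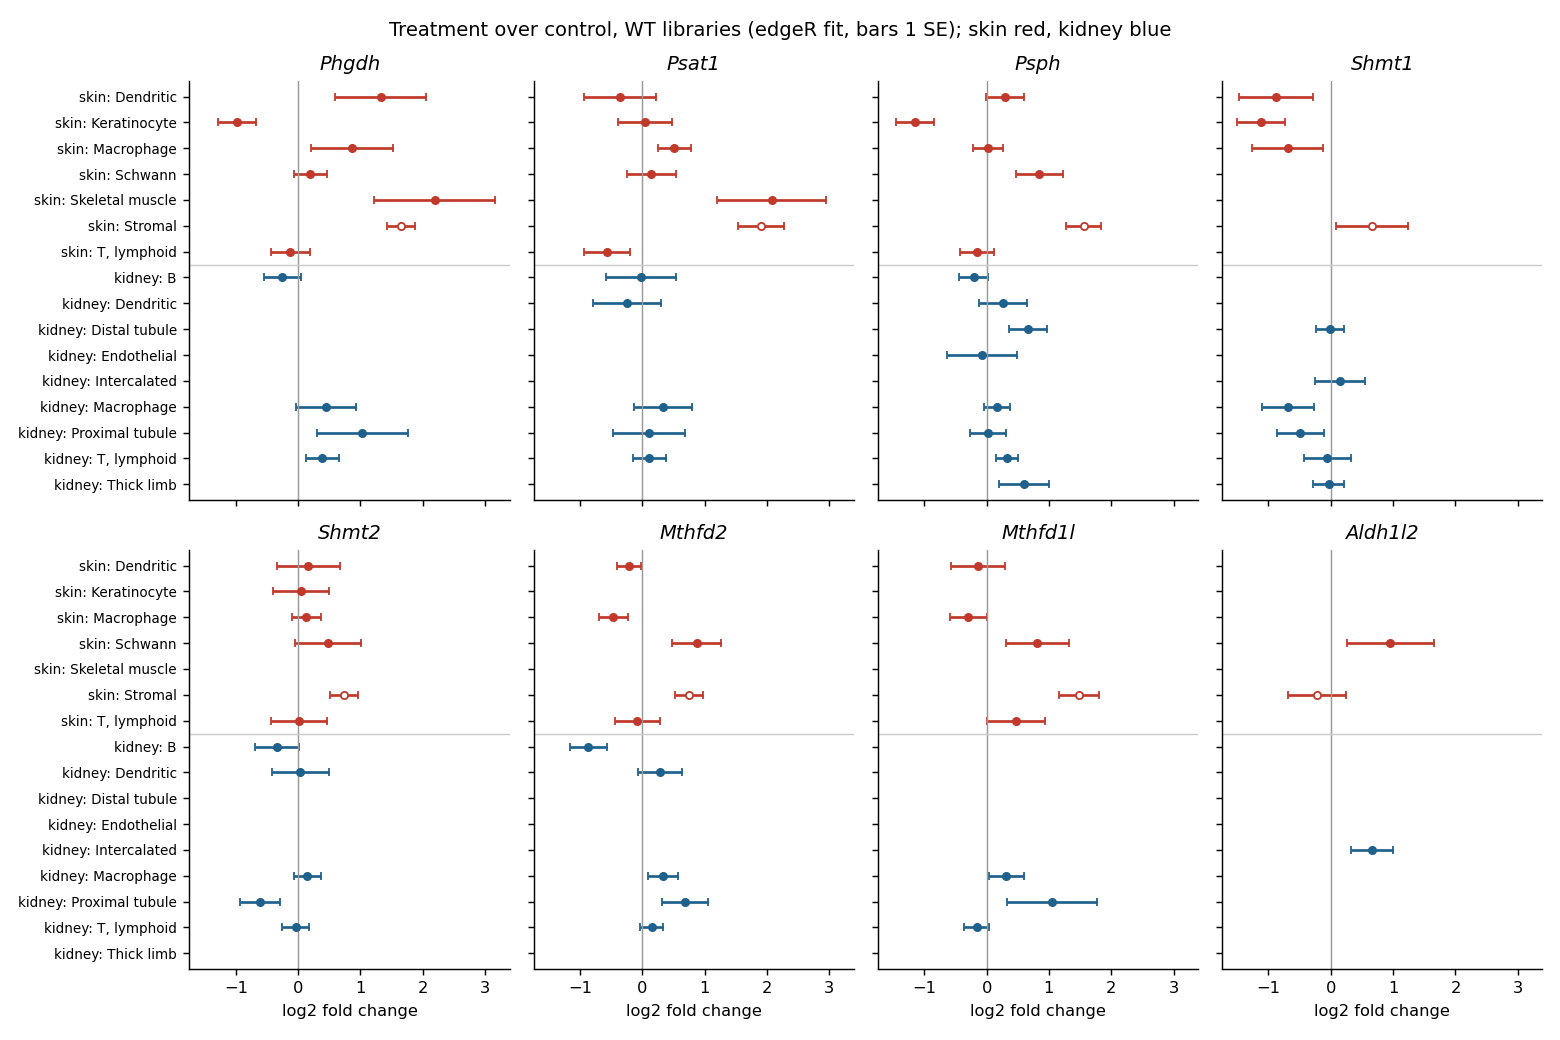
Fitted log2 difference, treatment over control in WT libraries (x axis, bars 1 SE), for each member (panels) and each class with enough counts (rows), skin in red for bleomycin and kidney in blue for AA. Open circles mark skin stromal cells, the contrast that chose the genes; Phgdh and Psph lie below 0 in keratinocytes, and no filled point passed adjustment.

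In kidney AA gave no call, in a contrast whose vehicle libraries were not alike. WT vehicle 1 and 2 had 5887 and 6344 proximal tubule cells and 420 and 479 T and innate lymphoid cells. WT vehicle 3 had 819 and 3241, within the 445 to 863 and 1987 to 3797 of the WT AA libraries. The genotype contrast below uses the same WT vehicle libraries. Of 37 pairs in 9 classes edgeR called 0, with 2 (5.41%) at an unadjusted p under 0.05, fewer than the 8.35% of all gene tests, and DESeq2 called 0 of 27. Of all genes 0.219% were called in intercalated cells and 0% in the other 9 classes tested. The 2 pairs were Psph in the distal convoluted and connecting tubule (24.2 to 29.1 CPM with vehicle, 31.4 to 52.1 CPM with AA, 0.66 ± 0.30, adjusted p = 0.258) and Mthfd2 in B cells (9.87 to 19.5 CPM against 6.53 to 9.06 CPM, -0.87 ± 0.30, adjusted p = 0.504). Phgdh in T and innate lymphoid cells was at 62.7, 72.7 and 108 CPM with vehicle and 104, 82.5 and 109 CPM with AA. Aldh1l2 in intercalated cells was at 27.1 and 28.9 CPM with vehicle and 40.7 to 47.5 CPM with AA (0.66 ± 0.34, adjusted p = 0.308), where the third vehicle library had 2 such cells and was not fitted.

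The proximal tubule, the main target of AA, had Phgdh at 2.31, 25.2 and 21.7 CPM in WT vehicle and at 39.2, 26.0 and 50.3 CPM in WT AA. The groups did not overlap, yet the difference did not pass (1.03 ± 0.72, edgeR adjusted p = 0.521, and 1.003 ± 0.87 without WT AA 1). SaraTG vehicle had 6.72 and 4.03 CPM and SaraTG AA 101 CPM. The vehicle libraries were not alike in their tubule cells. The summed level of 6 injury genes (Havcr1, Vcam1, Lcn2, Krt20, Spp1 and Krt8) was 173, 1860 and 8035 CPM in WT vehicle, 4225, 3018 and 8092 CPM in WT AA, 201 and 490 CPM in SaraTG vehicle and 4916 CPM in SaraTG AA.

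Over the 9 libraries all 8 members were set against that list, on log2(CPM + 10). The relation was chosen after these values had been seen, and vehicle and AA libraries differ in the list, so the correlations are a description and no p is given. Phgdh was higher where the list was higher (Pearson r = 0.838, Spearman rho = 0.783), with r = 0.719 in the 7 libraries left without the 2 farthest. Shmt2 was lower (r = -0.882, rho = -0.933, and r = -0.792 without the 2 farthest). Psat1 (r = 0.841), Mthfd1l (0.798), Psph (0.795) and Mthfd2 (0.756) went with Phgdh, and without the 2 farthest they had r = 0.587, 0.755, 0.607 and 0.639. Shmt1 and Aldh1l2 had r = 0.263 and 0.379. Without WT AA 1 and SaraTG AA 1, whose Zfyve9 counts go against their labels, 7 libraries gave r = 0.905 for Phgdh, 0.958 for Psat1 and -0.916 for Shmt2. Neither treatment has the 6 libraries set as the minimum for a correlation, so its values are given instead. In order of the injury list, Phgdh was at 2.31, 6.72, 4.03, 25.2 and 21.7 CPM in the 5 vehicle libraries and at 26.0, 39.2, 101 and 50.3 CPM in the 4 AA libraries. Shmt2 was at 106, 78.6, 74.6, 73.9 and 53.2 CPM and at 63.8, 63.9, 44.8 and 50.6 CPM. The 3 vehicle libraries with the lowest injury list had the 3 lowest Phgdh levels, and Shmt2 was lower at each step up the list within vehicle, but not within AA. Transcripts of other cells moved along too: the T cell list in tubule cells was at 2.51 to 53.0 CPM in WT vehicle and 106 to 206 CPM in WT AA, which is 0.037 to 2.53% of its level in T cells over all 9 libraries, and the straight-segment list ran from 61.5 to 1077 CPM. The cell-cycle list in tubule cells was at 14.8, 25.3 and 69.5 CPM in WT vehicle, 118, 71.2 and 167 CPM in WT AA, 60.2 and 24.5 CPM in SaraTG vehicle and 254 CPM in SaraTG AA, with 10 of 10 genes of higher mean with AA in WT. The macrophage list was at 18.4 to 137 CPM in WT vehicle and 212 to 243 CPM in WT AA, also with 10 of 10 higher. Their part was not tested. Phgdh in T and innate lymphoid cells of the same libraries was at 51.8 to 116 CPM.

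**Figure D5:**
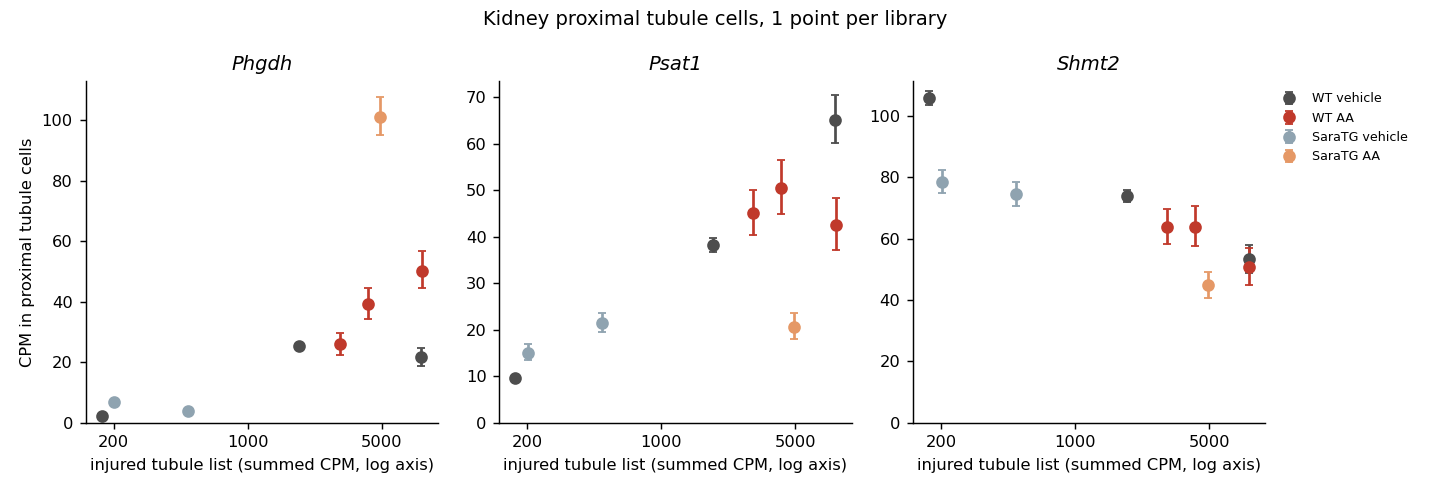
CPM of Phgdh, Psat1 and Shmt2 in kidney proximal tubule cells (y axis, bars exact 95% Poisson intervals) against the summed CPM of 6 tubule injury genes in the same cells (x axis, logarithmic), 1 point per library, coloured by genotype and treatment. Phgdh is at 2.31 to 6.72 CPM where the injury list is lowest and at 101 CPM in SaraTG AA, and Shmt2 goes from 106 to 44.8 CPM.

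Genotype gave no call. For SaraTG against WT under vehicle in kidney, 2 against 3 libraries, edgeR called 0 of 57 pairs in 10 classes, with 4 (7.02%) at an unadjusted p under 0.05, near the 7.26% of all gene tests, and DESeq2 0 of 46. Of all genes 0.39% were called in collecting duct principal cells, 0.021% in neutrophils, 0.0137% in the thick ascending limb and 0% in the other 8 classes. The 4 were Phgdh in B cells (74.7 ± 8.03 CPM in WT, 57.5 and 62.1 CPM in SaraTG, adjusted p = 0.228), Shmt2 in B cells (16.0 ± 7.76 against 9.68 and 11.4 CPM, adjusted p = 0.203), Phgdh in dendritic cells (6.90 ± 3.97 against 12.8 and 36.3 CPM, adjusted p = 0.940) and Aldh1l2 in the proximal tubule, below 0.5 CPM in all 5 libraries.

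Whether the treatment effect differed by genotype was tested in both tissues, leaving out skin stromal cells. SaraTG had 1 library per treatment in skin and 1 with AA in kidney, and these were assumed to vary like the libraries of the other groups. In skin the fit also held the gene list of the library, which differed between libraries, as a covariate. In skin edgeR called 0 of 50 pairs, with 1 (2%) at an unadjusted p under 0.05, against 5.3% of all gene tests. It was Psph in keratinocytes (93.0 and 108 CPM in SaraTG PBS and bleomycin, 1.31 ± 0.59, adjusted p = 0.562). Of all genes 0% were called in macrophages, 0.0113% in Schwann cells, 0.0215% in skeletal muscle, 0.0363% in dendritic cells, 0.0368% in endothelial cells, 0.455% in neutrophils, 0.532% in T and innate lymphoid cells, 0.631% in mural cells, 0.994% in keratinocytes and 2.24% in mast cells. In kidney it called 0 of 57, with 2 (3.51%, against 5.06% of all gene tests) at an unadjusted p under 0.05, where 0.694% of genes were called in principal cells, 0.021% in neutrophils and 0% in the other classes. They were Mthfd2 in B cells (1.29 ± 0.46, adjusted p = 0.369) and Phgdh in the proximal tubule (2.79 ± 1.22, adjusted p = 0.996). Both rest on the library labelled SaraTG AA 1, whose Zfyve9 level of 19.7 CPM goes against its label. DESeq2 was not run for this contrast. The pathway genes that passed were all of the cell cycle list. In keratinocytes they were Ube2c, Rrm2, Cdk1 and Birc5, with log2 differences of 5.28, 5.31, 4.74 and 4.03. They rest on 1 SaraTG library per treatment and on WT PBS 1 and 3, since with WT PBS 2, of 19 keratinocytes, as the only WT PBS library Ube2c had 1.72, Cdk1 2.05, Birc5 1.89 and Rrm2 no usable estimate. In T and innate lymphoid cells Mki67 had -2.28 (edgeR, -2.12 with shared barcodes left out, adjusted p = 0.0170, and -2.72 without WT PBS 1 and 3). That value rests on the single SaraTG PBS library, at 248 CPM. SaraTG bleomycin was at 62.6 CPM and the WT libraries at 66.5 to 90.6 CPM. Birc5 there had -2.27 and did not pass with shared barcodes left out (adjusted p = 0.0944).

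Across 24 cell types of both tissues the genes closest to Phgdh in mean level, of 14271, were Sirt6 (Pearson r = 0.850 on log2(CPM + 1)), Lnpk (0.773), Kcnq1ot1 (0.762), Fam171b (0.760) and Fhl2 (0.743). The closest to Psat1 were Slc1a4 (0.796), a carrier of serine and other neutral amino acids, Nup205 (0.794), Eif4b (0.728), Myc (0.714) and Trmt10a (0.712). Among the members Psph and Shmt2 were most alike (r = 0.812) and Shmt1 and Mthfd1l least (r = -0.604). These values describe 24 class means that share libraries and differ in depth.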

How the data were processed

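Single cells sorted for GFP were profiled by 10x Genomics 3′ sequencing in 17 libraries, 8 of skin and 9 of kidney. The authors deposited raw UMI counts for each gene and barcode from Cell Ranger. The submitters' processing notes name Cell Ranger 3.0.2, Seurat 2.3.4 and mm10, and the file headers name Cell Ranger 3.0.2, 3.1.0 or 4.0.0. In skin, WT PBS 1 and 2 and WT bleomycin 1 and 2 had 4.0.0 and a list of 32286 genes. The other skin libraries had 3.1.0 and the kidney libraries 3.0.2, all with 31053 genes. The 30406 shared genes were used.

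Barcodes under 200 detected genes or over 20% mitochondrial UMIs were left out, and the top cells by a doublet score (Scrublet in scanpy 1.11.5, 0.8% per 1000 cells) were removed. A cell joined the class with most detected markers, at least 2 and 1 more than the next class, where a marker counted only above what a share of 10% free RNA would give. Counts were summed per library and class with at least 10 cells. Sums were tested with edgeR 4.0.16 (quasi-likelihood, TMM, filterByExpr, Benjamini-Hochberg over all genes of the class, threshold 0.05), with DESeq2 1.42.0 as an alternative. Differences within libraries were tested by exact two-sided sign-flip permutation on log2(CPM + 10). Standard errors come from the weights and moderated variance of the edgeR fit. Scripts were tested on simulated data.

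In skin stromal cells, libraries with the same replicate number deviated together (r = 0.191 to 0.338, n = 3 pairs over 10707 genes). Pairs with other numbers had r = -0.260 to 0.010. Skin macrophages had 0.242 to 0.601, but other numbers there reached 0.305. These classes met the rule for pairing, and the other classes and kidney did not. Skin neutrophils, among those not meeting it, had 0.090 to 0.363, with other numbers at 0.071 or less. The fit with the replicate block was an alternative. Others were another normalization, filters, gates, doublets kept, each library left out, shared barcodes left out and thinning to 3000 UMIs. Named genes are the 8 members in every comparison, up to 10 pathway genes past the threshold in a class (up to 15 without overlap in stromal cells) with at least 10 CPM, and the 5 genes most like Phgdh or Psat1. A pathway gene that this rule names is not reported here. The difference in treatment effect between genotypes was not tested in skin stromal cells, since it holds the contrast that chose the genes. The fits of that difference without doubted libraries, and the sign-flip tests over all genes of at least 1 CPM, were added after the data had been seen. The members and lists were chosen with earlier results of these data known. Intervals and floors cover counting error only. Sequences are from RefSeq GRCm38.p6 and gene positions follow GRCm38.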

Additional observations from a re-analysis of the deposited data

How the results depend on the processing

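In skin stromal cells Phgdh was higher with bleomycin by 1.52 to 1.74 log2 units and Psat1 by 1.68 to 2.12 when each library was left out in turn. By more than the SD between replicate libraries, Phgdh moved to 2.24 without WT PBS 1 and 3 together and to 1.31 with each cell thinned to 3000 UMIs, and Psat1 to 3.51 without WT PBS 1 and 3. The thinned value is a log2 ratio of group mean CPM with 1 CPM added, not a fit. With shared barcodes left out Phgdh and Psat1 had 1.34 and 1.27, shifts within that SD though beyond the SE of the fit. These settings, like the leaving out of shared barcodes, were added after the data had been seen. With the replicate block for the pairing of stromal libraries Phgdh had 1.69 and Psat1 2.02, and the block changed no call in the treatment and genotype comparisons. In the other skin classes, where 0 members were called, 2 were called with no filter on low counts and 1 without WT bleomycin 3, which gives a range of 0 to 1 over the libraries left out. The kidney and genotype comparisons had 0 calls under each alternative run. Cycling cells gave 0 differences in place of 11 both with shared barcodes left out and after thinning, when stromal cells kept 4 libraries, tubule cells 6 and lymphoid cells 7. The cause was not tested.

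Differences that changed sign were among those that had not passed, apart from Shmt1 in kidney and Mthfd1l in cycling stromal cells. On the log2 scale, between cell types Aldh1l2 in skin (stromal minus Schwann cells) was 0.20 with 1 CPM added and 0.010 with shared barcodes left out, Psph in kidney was -0.057 with a stricter cell filter, and Shmt1 in kidney was -0.016 with a stricter gate. Between Cthrc1-list and Pi16-list cells Mthfd2 was -0.24 with 1 CPM added, Phgdh -0.024 with a stricter cell filter, and Psat1 -0.24 with a stricter gate and -0.79 with shared barcodes left out, and after thinning Phgdh was -0.30, Psat1 -0.10 and Psph -0.20. Between cycling and other cells Aldh1l2 was 0.075 in the proximal tubule with a stricter cell filter and -0.089 in stromal cells with shared barcodes left out. After thinning, Mthfd1l in stromal cells was -0.47, Aldh1l2 there -0.25 and Psph in the proximal tubule 0.36. The cause of these changes was not tested. Depth limits the stromal values of WT PBS 2, which rest on 1 to 15 UMIs of a member.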
